A study of Homo sapiens with 12 samples.

Results

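These results concern the response of a human podocyte line to doxycycline when the induced transgene was eGFP. The comparison was made over 6 of the 12 libraries of the study: 3 from cells given doxycycline at 0.1 µg/ml for 24 hours and 3 from untreated cells of the same line, chosen by their labels. Podocytes are the epithelial cells that form the slit diaphragm of the kidney glomerulus. The study compared this pCW-eGFP line with a pCW line for YAP5SA, an activated form of the transcriptional co-activator YAP. The eGFP line addresses what the drug and an unrelated transgene do without YAP5SA. All cells used here share a conditional immortalization by a thermolabile SV40 large-T antigen, growth at 33 °C and 12 days at 37 °C before treatment. The labels call the lines stable without saying whether either is 1 clone. Nor do they say whether the replicates numbered 1 to 3 were separate cultures. The p-values thus reflect only how far these libraries spread, and that spread may be technical. A lower level in bulk RNA can come from fewer cells of a type or from less RNA per cell, and these cannot be told apart.

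In a Tet-On construct, doxycycline binds a reverse transactivator that then switches on the transgene. Doxycycline is a tetracycline antibiotic that blocks the bacterial ribosome and can also act on the related ribosome of mitochondria. Interferon-stimulated genes, which the results below turn on, are induced when interferon receptors signal through JAK kinases to a complex of transcription factors that includes STAT2 and IRF9. That complex binds a DNA element known as the interferon-stimulated response element. Many of the proteins made, such as the MX GTPases, the OAS enzymes and the IFIT proteins, restrict viruses inside the cell.

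The 6 libraries held 24477592 to 25177086 counts. Podocyte markers were only partly present: SYNPO, for an actin-binding protein of foot processes, had a mean of 437 CPM (library-size scaled counts) in untreated cells, PODXL 43.7 CPM and CD2AP 270 CPM. NPHS1, for nephrin, had 8 reads in the 6 libraries together and WT1 had 18. PAX8 (574 CPM) and CLDN1 (466 CPM), both also known from parietal epithelial cells, were abundant. PECAM1 (2 reads), KDR (3), CD3E (8), UMOD (0) and LRP2 (5) were at or near 0. The count table used here has no eGFP row, and induction of the transgene was not checked. YAP1 (ENSG00000137693), the gene behind the other line's transgene, had 173, 332 and 321 CPM in untreated libraries 1 to 3 and 177, 326 and 312 CPM in treated libraries 1 to 3. Its level followed the replicate number and not the drug, with a log2 fold change of -0.02 ± 0.36 (standard error, SE).

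The replicate number separated the libraries more than doxycycline did. In a principal component analysis of the 6 libraries, the first component (34.0% of the variance) placed both number 2 libraries at the low end (-20.5 and -20.8) and both number 3 libraries at the high end (18.4 and 20.1). The second component (24.6%) set the number 1 libraries apart, at -21.1 and -18.1 against 8.57 to 11.2 for the other 4. Deviations from the group means correlated across genes at 0.23, 0.42 and 0.41 within same-numbered pairs, and at -0.33 to -0.08 between libraries of different number. Deviations cancel within each group, so the negative values follow in part from the positive ones and add no separate information. Because of the same-number correlations, the libraries were also compared as 3 pairs.

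**Figure D1:**
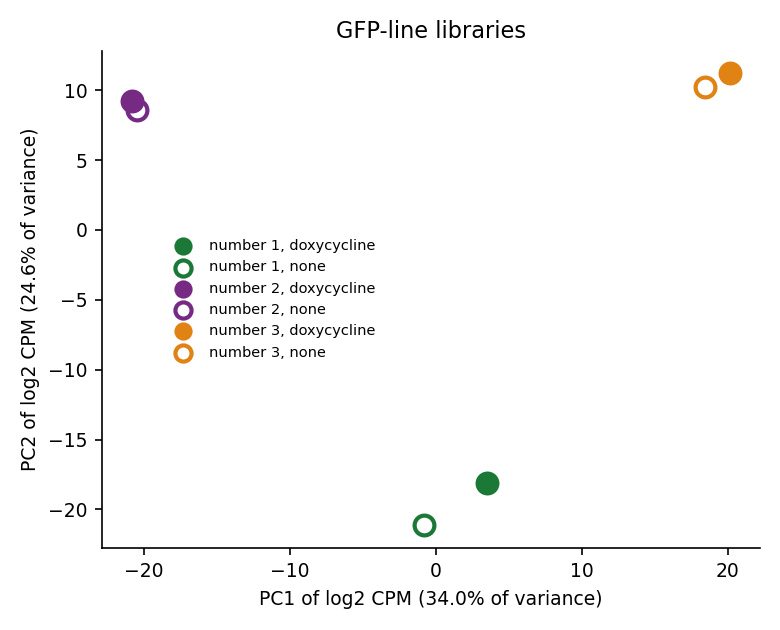
First and second principal components of log2 CPM in the 6 eGFP-line libraries, with filled circles for doxycycline, open circles for none and 1 colour per replicate number. Libraries with the same number lie together, and treated and untreated libraries do not separate on either axis.

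Within pairs 2 and 3 the counts of mitosis genes were closer than independent counting gives. Between 2 libraries that differ by counting error alone, a chi-square statistic per gene averages near 1. Over all genes with at least 20 reads in the pair it averaged 2.50, 1.57 and 1.35 in pairs 1, 2 and 3. Over a list of 16 mitosis genes it averaged 52.3 in pair 1, but 0.297 in pair 2 and 0.147 in pair 3. In 27 other gene lists with at least 10 members the lowest averages were 0.682 and 0.779 in pairs 2 and 3. A further 47 mitosis genes, picked after this was seen, averaged 0.305 and 0.339. The proliferation marker MKI67 had 3216 and 3111 reads in untreated libraries 2 and 3, and 3198 and 3104 in treated libraries 2 and 3. Between the number 2 and number 3 libraries the 16 genes averaged 1.2 both among untreated and among treated libraries, near counting error, where all genes averaged 9.15 and 9.53. The treated and untreated counts of these genes in pairs 2 and 3 therefore do not behave as independent, their spread within those pairs is understated, and the cause was not tested. Leaving these 63 genes out of the paired fit kept all 20 genes called there and added 1 (MCC).

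Without pairing, edgeR called no gene and DESeq2 called 1. edgeR's quasi-likelihood test over all 12 libraries called 0 of 17470 genes (0%) at an adjusted p below 0.05, with 282 (1.61%) at an unadjusted p below 0.05. The DESeq2 call (0.00572%) was PGK1, and edgeR with no filter on low counts called 3 genes, PGK1, C21orf91 and CEMIP. The 95% interval of the log2 fold change lay within ±1, a 2-fold change, for 15870 genes (90.8%) and within ±0.5 for 12270 (70.2%). Among the 17470 genes 30 had a fitted change of at least 1 on the log2 scale in either direction, none of them past the threshold.

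With the replicate number as a block in the 6 libraries alone, edgeR called 20 genes (0.114%), 6 higher (0.0343%) and 14 lower (0.0801%) with doxycycline. Most of these calls rest on the block together with a spread estimated from the 6 libraries alone. Among these 20 genes the lowest adjusted p of the unpaired edgeR fit was 0.99965. The block over all 12 libraries called 0 of the 20, and unpaired edgeR with no filter on low counts called 2 of them. All 20 had the same direction in all 3 pairs, while 13.7% of all genes tested were higher and 12.4% lower in all 3. The groups did not overlap for 11 of the 20, beside 3.35% of all genes higher and 2.87% lower without overlap. The changes were small, from 0.14 to 0.86 on the log2 scale in size. Without pair 1, 2 or 3 the fit called 23 (0.132%), 18 (0.103%) or 77 (0.441%) genes. Of the 20, 6 were called in all 3 of those fits: C21orf91, CENPT, MX1, OAS2, OAS3 and PPIF. Each of those fits has fewer libraries from which to estimate spread, so a call in all 3 is weak support. The 18 without pair 2 include INCENP, a mitosis gene of the set described above. They also include TACC3, ZWINT, PRR11 and IQGAP3, which that set does not hold. Whether the counts of those genes are also too close was not examined, and the fit without mitosis genes did not leave them out. Interferon-stimulated genes made up 11 of the 14 lower genes.

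The interferon-stimulated genes that fell encode antiviral enzymes (OAS1, OAS2 and OAS3), antiviral GTPases (MX1 and MX2), the ubiquitin-like protein ISG15, the RNA-binding protein IFIT3, the membrane protein IFITM1 and the proteins IFI27, IFI44L and XAF1. Promoters of several are shown because these genes moved together, 4 with a match to the motif searched for and OAS1 without one. The windows run from 250 bases before to 50 bases after the start of transcription, from RefSeq on GRCh38.p14, all on the plus strand. Capitals mark matches to GAAANNGAAA, the core of the interferon-stimulated response element, searched on both strands with overlapping matches counted.
OAS3, chr12:112938224-112938523: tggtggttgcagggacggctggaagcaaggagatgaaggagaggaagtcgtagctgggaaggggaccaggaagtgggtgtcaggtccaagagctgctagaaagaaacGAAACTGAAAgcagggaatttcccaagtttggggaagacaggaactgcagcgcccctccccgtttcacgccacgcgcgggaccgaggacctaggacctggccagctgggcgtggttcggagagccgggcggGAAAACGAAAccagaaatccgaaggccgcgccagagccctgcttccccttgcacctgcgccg
MX1, chr21:41420308-41420607: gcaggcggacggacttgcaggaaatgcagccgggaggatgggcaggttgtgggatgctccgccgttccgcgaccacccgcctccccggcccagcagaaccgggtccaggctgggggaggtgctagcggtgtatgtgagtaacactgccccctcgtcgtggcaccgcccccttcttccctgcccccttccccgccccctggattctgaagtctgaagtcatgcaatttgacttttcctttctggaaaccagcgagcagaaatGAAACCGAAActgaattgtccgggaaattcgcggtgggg
ISG15, chr1:1013247-1013546: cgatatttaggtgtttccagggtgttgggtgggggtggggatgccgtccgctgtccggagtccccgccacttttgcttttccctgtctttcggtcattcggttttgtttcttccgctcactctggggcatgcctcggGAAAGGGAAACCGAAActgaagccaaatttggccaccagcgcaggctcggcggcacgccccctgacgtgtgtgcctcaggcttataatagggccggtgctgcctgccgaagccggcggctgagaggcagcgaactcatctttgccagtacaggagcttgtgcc
IFITM1, chr11:313790-314089: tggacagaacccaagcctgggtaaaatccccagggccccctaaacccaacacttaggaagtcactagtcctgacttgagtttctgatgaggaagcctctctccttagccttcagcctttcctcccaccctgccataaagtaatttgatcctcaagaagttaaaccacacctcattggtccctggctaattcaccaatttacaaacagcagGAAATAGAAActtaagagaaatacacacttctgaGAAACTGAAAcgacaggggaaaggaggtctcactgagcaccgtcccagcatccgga
OAS1, chr12:112906712-112907011: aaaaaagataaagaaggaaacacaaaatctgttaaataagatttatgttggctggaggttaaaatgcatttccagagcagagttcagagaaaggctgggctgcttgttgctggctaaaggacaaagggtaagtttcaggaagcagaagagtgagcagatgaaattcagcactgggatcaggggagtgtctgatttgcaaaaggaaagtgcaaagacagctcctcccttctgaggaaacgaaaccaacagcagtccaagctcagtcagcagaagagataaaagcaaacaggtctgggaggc

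OAS3 holds 2 matches, starting at -143 and -12 from the transcription start, and IFITM1 holds 2, at -40 and -6. In ISG15 a pair of overlapping matches starts at -113 and -107, and MX1 has 1 match at 12 in the window shown. The OAS1 window and both XAF1 windows hold no match to these letters. The OAS1 window and 1 of the XAF1 windows do hold 2 GAAA runs with 1 base between them. The motif searched needs 2 bases there, so a missing match does not show that the element is absent. Of the 11 interferon-stimulated genes called, 9 were in the promoter table, and 7 of those (77.8%) had a match. MX2 and OAS2 are named only. In all promoters of that length the motif was in 1255 of 35116 (3.57%), or in 1195 of 27305 genes (4.38%). Members of the interferon list that did not pass had it nearly as often as those that did, in 16 of 24 genes matched (66.7%). A match is a description of the sequence, not evidence of binding.

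OAS3 (ENSG00000111331, chromosome 12, 112938352 to 112973249), for an enzyme activated by double-stranded RNA, had 111, 126 and 130 CPM in untreated libraries 1 to 3 and 89.4, 102 and 106 CPM in treated libraries 1 to 3. All 3 treated libraries were below all 3 untreated ones. It fell by 0.30 ± 0.03 on the log2 scale (SE, paired edgeR adjusted p = 1.13e-08), with -0.31, -0.30 and -0.29 in pairs 1 to 3. The unpaired edgeR estimate was also -0.30, but with an SE of 0.15. Its neighbours in the OAS cluster fell too. OAS2 had 14.4, 21.8 and 24.5 CPM untreated and 12.6, 15.1 and 18.1 CPM treated. OAS1 had 10.8, 15.3 and 19.6 CPM untreated and 9.53, 11.2 and 14.2 CPM treated. For both, libraries of the 2 groups overlapped and each treated library was below its own pair. The paired log2 fold changes were -0.40 ± 0.06 for OAS2 and -0.38 ± 0.07 for OAS1 (edgeR adjusted p = 0.000513 and 0.00692).

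MX1 (ENSG00000157601, chromosome 21, 41420304 to 41459214), a dynamin-like GTPase that blocks viral nucleocapsids, had 71.9, 99.7 and 94.7 CPM without the drug and 59.8, 78.5 and 73.4 CPM with it. The groups overlapped, because library 1 was low in each. Within pairs the changes were -0.27, -0.34 and -0.37, and the paired log2 fold change was -0.33 ± 0.03 (edgeR adjusted p = 2.61e-08). MX2 (ENSG00000183486), its paralog next to it on chromosome 21, had 4.85, 6.18 and 9.64 CPM untreated and 3.4, 4.17 and 4.71 CPM treated. Here all treated libraries were below all untreated ones. The fall, -0.74 ± 0.11 (adjusted p = 0.000274 by paired edgeR), was the largest among the 11.

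ISG15 (ENSG00000187608), which is conjugated to other proteins, had 31.1, 35.8 and 44.2 CPM untreated and 28.1, 28.1 and 37.0 CPM treated, with overlapping groups. It changed by -0.25 ± 0.05 (paired edgeR adjusted p = 0.00692). IFITM1 (ENSG00000185885), for a membrane protein that hinders virus entry, had 6.98, 8.16 and 7.31 CPM untreated and 5.74, 5.72 and 4.52 CPM treated. Its groups did not overlap, and it changed by -0.49 ± 0.10 (adjusted p = 0.0221 by paired edgeR). IFIT3, which acts with IFIT1 on viral RNA, had 35.6, 41.3 and 57.9 CPM untreated and 34.2, 32.8 and 45.4 CPM treated, a change of -0.26 ± 0.05. The untreated and treated libraries overlapped, since the untreated library 1 was below the treated library 3. The remaining 3 genes called were IFI27 (-0.18 ± 0.04), IFI44L (-0.43 ± 0.09) and XAF1 (-0.21 ± 0.05).

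**Figure D2:**
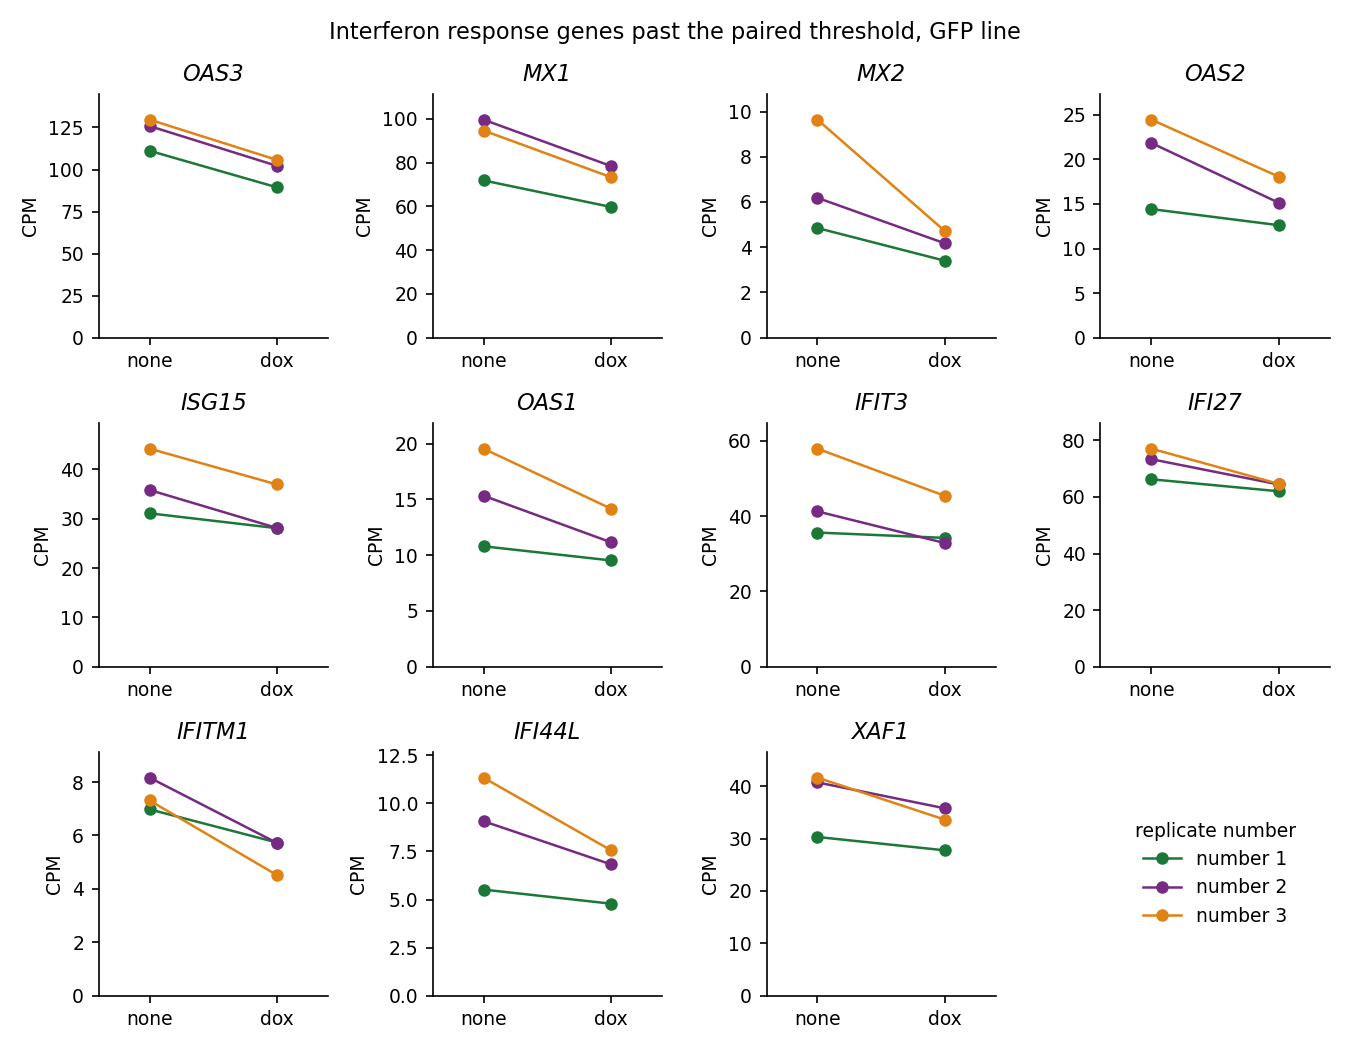
CPM of each of the 11 interferon-stimulated genes past the paired threshold, without (left) and with (right) doxycycline, with 1 line per replicate number and every axis starting at 0. All lines slope down, and number 1 is the lowest untreated library for all 11 genes.

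The interferon response list was written with earlier results of these data known, so its counts are a description and not a test. It holds 42 genes, all of them tested, of which 11 fell and 0 rose in the paired fit (26.2%, beside 0.0801% of all genes lower). At an unadjusted p below 0.05 there were 27 lower and 0 higher, beside 3.09% of all genes lower, 2.6% higher and 5.69% in both directions. In all 3 pairs 25 were lower and 0 higher. The list's median paired log2 fold change was -0.14, and that of all genes tested was 0.00169. The pairs were unequal. The median over the list was -0.03 in pair 1, -0.19 in pair 2 and -0.21 in pair 3, with 27, 39 and 40 members lower. Without pair 1, 2 or 3 the paired fit called 15, 6 or 4 members, and with the same block DESeq2 called 2 and limma-voom 9. The untreated library 1 was the lowest of its group for 39 of the 42 genes and the untreated library 3 was the highest for 31, so the list also moved with the replicate number. Summed over the list, untreated libraries held 2123, 2326 and 2542 CPM and treated libraries 2081, 2114 and 2267 CPM. The unpaired fit called 0 of the 42.

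Other members of the list did not pass. RSAD2, for the antiviral enzyme viperin, had 1.26, 2.85 and 3.60 CPM untreated and 1.03, 1.63 and 1.82 CPM treated (-0.77 ± 0.18, paired edgeR adjusted p = 0.065). IFI6 had 66.3, 45.9 and 117 CPM untreated and 62.4, 44.4 and 94.7 CPM treated (-0.17 ± 0.04, adjusted p = 0.19 by paired edgeR). IFIT1 was 8.04 and 8.31 CPM in pair 1 but 25.9 and 14.3 CPM in pair 3, and its -0.58 ± 0.19 did not pass. At the other end, IRF9 and CMPK2 had paired log2 fold changes of 0.00 ± 0.13 each, and RIGI, for a sensor of viral RNA, had the highest estimate at 0.13 ± 0.20.

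**Figure D3:**
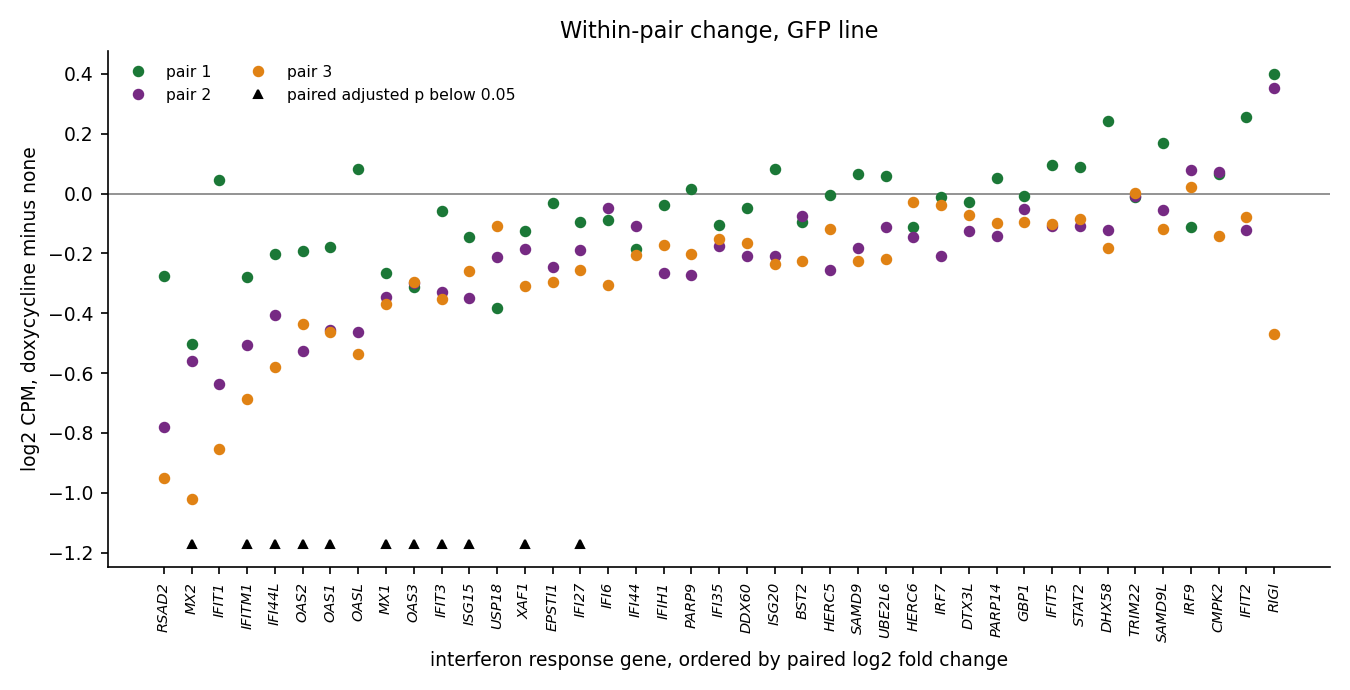
Difference in log2 CPM between doxycycline and none within each pair for 41 genes of the interferon list, ordered by the paired log2 fold change, with triangles under the 11 past the threshold. Points of pairs 2 and 3 lie below 0 for 38 and 39 of the genes shown and those of pair 1 for 27.

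Genes that act upstream are given for their values. A list of 20 receptors, sensors and signalling components of the interferon system had 17 members tested and 0 called, with a median of 0.00458. With 0.114% of all genes called, 0 of 17 is near the background, and the same holds for the other short lists with 0 calls given below. The receptor genes IFNAR1 (0.03 ± 0.03) and IFNAR2 (-0.01 ± 0.05) and the kinase genes JAK1 (0.02 ± 0.02) and TYK2 (0.03 ± 0.03) had estimates near 0. STAT2, a transcription factor of the pathway, had 91.9, 96.2 and 104 CPM untreated and 97.6, 89.2 and 97.8 CPM treated (-0.03 ± 0.03), with overlapping groups. The interferon genes themselves were barely read, with 1 read for IFNB1, 22 for IFNE and 0 for IFNL1 in the 6 libraries together. The list of 15 MHC class I antigen presentation genes, which interferons also induce, had 0 calls and a median of -0.01. Leukocyte markers were at trace levels, with PTPRC, CD14 and LAPTM5 at 113, 126 and 77 reads in total and 0 of these 3 called.

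In the YAP5SA line the same drug treatment came with induction of YAP5SA, so its values stand beside those of the eGFP line and are no repeat of them. The unpaired edgeR fit called none of the 11 interferon-stimulated genes in either line, where it called 19.1% of all genes in the YAP5SA line and 0% in the eGFP line. Their unpaired log2 fold changes in the YAP5SA line ran from -0.17 to 0.33, with 0.371 as the lowest edgeR adjusted p. OAS3 had 121, 100 and 132 CPM without and 133, 89.2 and 128 CPM with the drug in that line. The difference between the lines, tested as an interaction in the unpaired edgeR fit, passed for 0 of the 11 (adjusted p = 0.248 to 0.791), where 6.88% of all genes passed. A paired test of the same difference was added after these values were seen, with 6 pairs, a doxycycline term for each line and 4 residual degrees of freedom. It passed for 2 of the 11, OAS3 and ISG15, where 21% of all genes passed. OAS3 differed by -0.28 between the lines (eGFP minus YAP5SA, 95% interval -0.41 to -0.15, edgeR adjusted p = 0.00249) and ISG15 by -0.21 (-0.35 to -0.06, edgeR adjusted p = 0.035). All 11 differences were negative, from -0.96 to -0.15, and the other 9 did not pass (highest edgeR adjusted p = 0.441). The 11 genes were chosen by their fall in these same eGFP-line libraries, which favours negative differences. The signs, sizes and passes are thus partly set by that choice, and no conclusion is drawn from them. The paired fit over both lines shares 1 spread between the lines. It called OAS3 alone of the 11 in the eGFP line and none in the YAP5SA line, where it called 0.0172% and 34.1% of all genes. The pairing itself was uneven in the YAP5SA line, where same-numbered libraries correlated at -0.12, 0.35 and 0.33.

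Of the 20 genes called in the paired eGFP-line fit, the unpaired fit in the YAP5SA line called 2 rises and 1 fall the same way. It called 1 gene the opposite way. The added paired test of the difference between the lines passed for 7 of the 20, where 21% of all genes passed. Those were OAS3, ISG15, PPIF, CEMIP, HMGA2, F3 and RPS3AP47. All 20 were chosen by their change in these same eGFP-line libraries, so no conclusion is drawn from those passes. Of the 6 genes that rose, CENPT and C21orf91 also rose in the YAP5SA line. CENPT (ENSG00000102901, chromosome 16, 67828157 to 67847811), for a protein that links centromere DNA to the kinetochore, had 66.3, 79.4 and 71.2 CPM untreated and 91.8, 102 and 81.4 CPM treated. The groups did not overlap, and the paired log2 fold change was 0.34 ± 0.04 (edgeR adjusted p = 4.03e-05). In the YAP5SA line it went from 82.5, 86.6 and 77.7 to 113, 114 and 95.5 CPM (0.38 ± 0.09, edgeR adjusted p = 0.0117). C21orf91 (ENSG00000154642, chromosome 21, 17788967 to 17819386) had 9.82, 9.27 and 11.8 CPM untreated and 16.3, 13.5 and 14.5 CPM treated, again without overlap. It rose by 0.52 ± 0.08 (paired edgeR adjusted p = 0.000145), and by 0.34 ± 0.10 in the YAP5SA line (edgeR adjusted p = 0.0292). The interaction passed for neither gene (edgeR adjusted p = 0.894 and 0.512). In that line 9.83% of all genes rose, so a shared rise has a sizeable background.

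PPIF (ENSG00000108179), for cyclophilin D of the mitochondrial matrix, had 96.7, 91.4 and 110 CPM untreated and 131, 115 and 123 CPM treated (0.31 ± 0.04, paired edgeR adjusted p = 0.00687). CEMIP (ENSG00000103888), for a protein that promotes hyaluronan breakdown, had 4.22, 3.41 and 3.99 CPM untreated and 7.20, 8.94 and 4.99 CPM treated (0.86 ± 0.15, adjusted p = 0.0331 by paired edgeR). Neither overlapped between the groups, and neither was called in the YAP5SA line (-0.09 ± 0.11 and 0.13 ± 0.20). TNFRSF10D, for a decoy receptor of the death ligand TRAIL, had 109, 105 and 107 CPM untreated and 123, 117 and 116 CPM treated (0.15 ± 0.03). TRIM55 (ENSG00000147573), for a muscle RING-finger protein, had 121, 114 and 116 CPM untreated and 151, 143 and 123 CPM treated (0.25 ± 0.04, adjusted p = 0.0116 by paired edgeR). In the YAP5SA line TRIM55 moved the other way, from 116, 110 and 114 to 42.6, 63.5 and 81.0 CPM, and the interaction passed in the unpaired fit (edgeR adjusted p = 0.0278) but not in the paired one (edgeR adjusted p = 0.0587).

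PGK1 (ENSG00000102144, chromosome X, 77910739 to 78129296), for the glycolytic enzyme phosphoglycerate kinase, had 385, 410 and 428 CPM untreated and 541, 539 and 504 CPM treated. All treated libraries were above all untreated ones. The unpaired log2 fold change was 0.37 ± 0.05, which DESeq2 called (adjusted p = 1.76e-06) and edgeR did not (adjusted p = 0.127). The paired edgeR fit gave 0.38 ± 0.05 and did not call it (adjusted p = 0.363), with 0.49, 0.40 and 0.23 in pairs 1 to 3. DESeq2 with the same block called PGK1 (adjusted p = 0.00175). So did paired edgeR without pair 1, 2 or 3 (adjusted p = 0.000961, 4.45e-21 and 1.57e-51). Fits with a pair left out have fewer libraries from which to estimate spread, and their p-values varied widely. In the YAP5SA line PGK1 went from 401, 429 and 416 to 501, 486 and 448 CPM, a rise of 0.21 ± 0.05 (edgeR adjusted p = 0.0145). Over the 22 other genes of the glycolysis list 0 were called, and their paired log2 fold changes ran from -0.17 (LDHB) to 0.06 with a median of -0.01. GAPDH, the enzyme before PGK1 in the pathway, had 0.01 ± 0.02, and PGAM1, the enzyme after it, had -0.05 ± 0.03. The 21 hypoxia response genes tested had 0 calls and a median of -0.01.

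**Figure D4:**
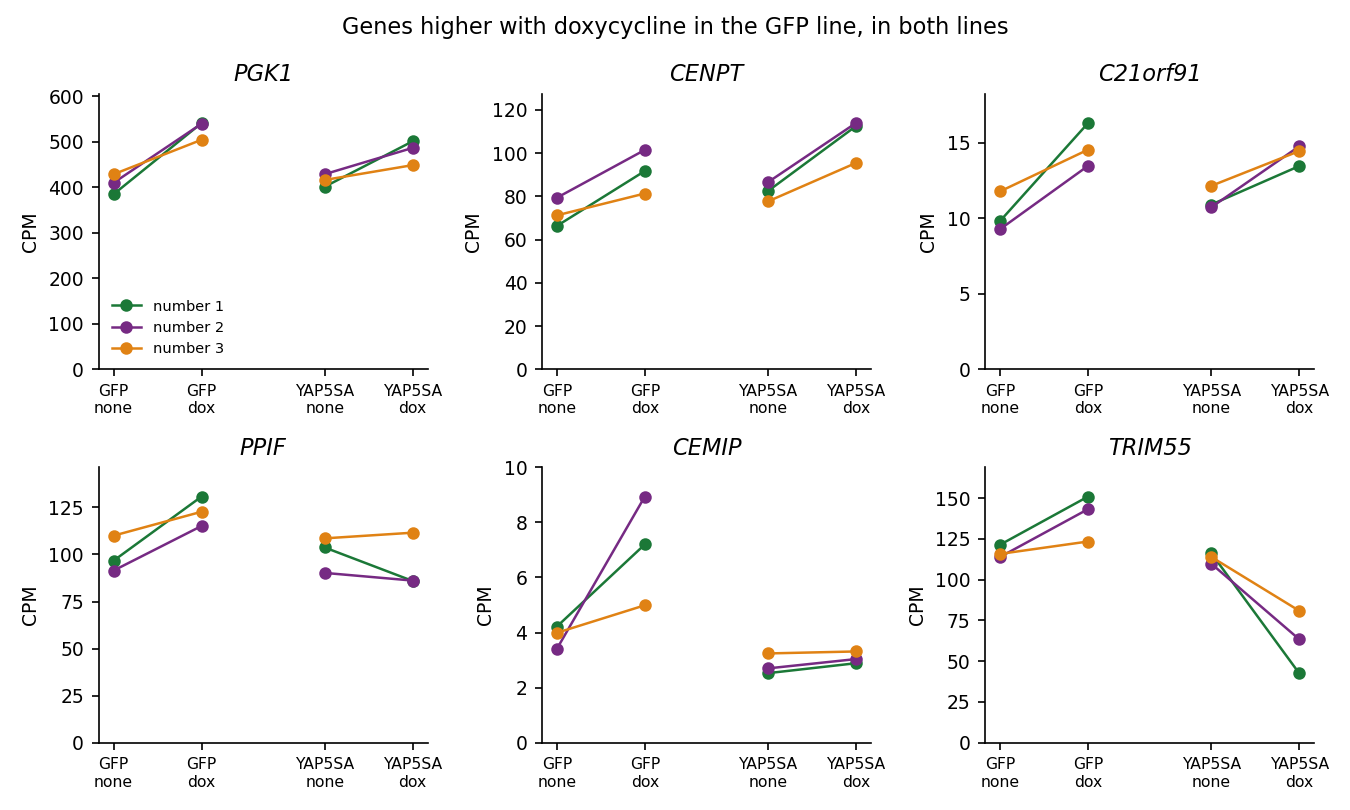
CPM of PGK1, CENPT, C21orf91, PPIF, CEMIP and TRIM55 in both lines, without and with doxycycline, with 1 line per replicate number and axes from 0. The first 3 go up with the drug in all 3 libraries of each line, and TRIM55 goes up in the eGFP line and down in the YAP5SA line.

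Outside the interferon list 3 genes fell. HMGA2 (ENSG00000149948), for a chromatin protein, had 99.4, 113 and 78.8 CPM untreated and 84.8, 98.6 and 75.9 CPM treated (-0.16 ± 0.03, paired edgeR adjusted p = 0.0187). It also fell in the YAP5SA line, from 70.2, 79.1 and 64.8 to 47.1, 47.5 and 46.8 CPM (-0.60 ± 0.13, edgeR adjusted p = 0.00927), where 9.28% of all genes fell. F3, for tissue factor and a target of YAP and TAZ, had 133, 134 and 115 CPM untreated and 126, 119 and 103 CPM treated (-0.14 ± 0.03). In the YAP5SA line F3 rose by 0.60 ± 0.11 in the paired fit over both lines (edgeR adjusted p = 0.0165). RPS3AP47, a processed pseudogene, had 6.07, 5.87 and 5.18 CPM untreated and 4.0, 4.41 and 3.56 CPM treated (-0.51 ± 0.11). Its reads can be shared with the parent gene RPS3A, which had 0.05 ± 0.03, so this value is uncertain.

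The mitochondrial transcripts, of interest because the drug can act on mitochondrial ribosomes, are described by their levels. All 13 mRNAs of mitochondrial DNA were tested, 0 were called, and their median was 0.00452, with a range of -0.06 (MT-ATP8) to 0.03 (MT-CO3). The pairs differed in direction, with medians of -0.08, 0.05 and 0.03 in pairs 1 to 3 and 13, 1 and 1 members lower. The unpaired 95% interval of each of the 13 lay within ±0.5. Their share of all counts was 2.86%, 2.69% and 2.84% in untreated libraries and 2.72%, 2.78% and 2.90% in treated ones, and the groups overlapped. Lists of 54 nuclear subunits of oxidative phosphorylation, 79 tested mitochondrial ribosome genes, 17 mitochondrial chaperones and proteases, and 28 ATF4 response genes each had 0 calls, with medians of -0.00109, -0.000825, 0.00773 and 0.00852. Transcript levels do not show how much protein mitochondria made.

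Of the 33 gene lists, 2 held a gene called in the paired fit. They were the interferon list and the YAP and TAZ targets, with F3 alone. CCN1 (0.02 ± 0.02) and AMOTL2 (0.02 ± 0.02), targets of YAP, were not called. Among the 27 other lists with at least 10 members tested, medians ran from -0.14 (mitosis) to 0.04 (collagens). Heat shock genes had 0.02, cholesterol synthesis genes -0.00412 and podocyte genes -0.00344. FOSL1, of the immediate early genes, had 151, 155 and 152 CPM untreated and 128, 148 and 145 CPM treated (-0.12 ± 0.03), without overlap, and did not pass (paired edgeR adjusted p = 0.13).

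**Figure D5:**
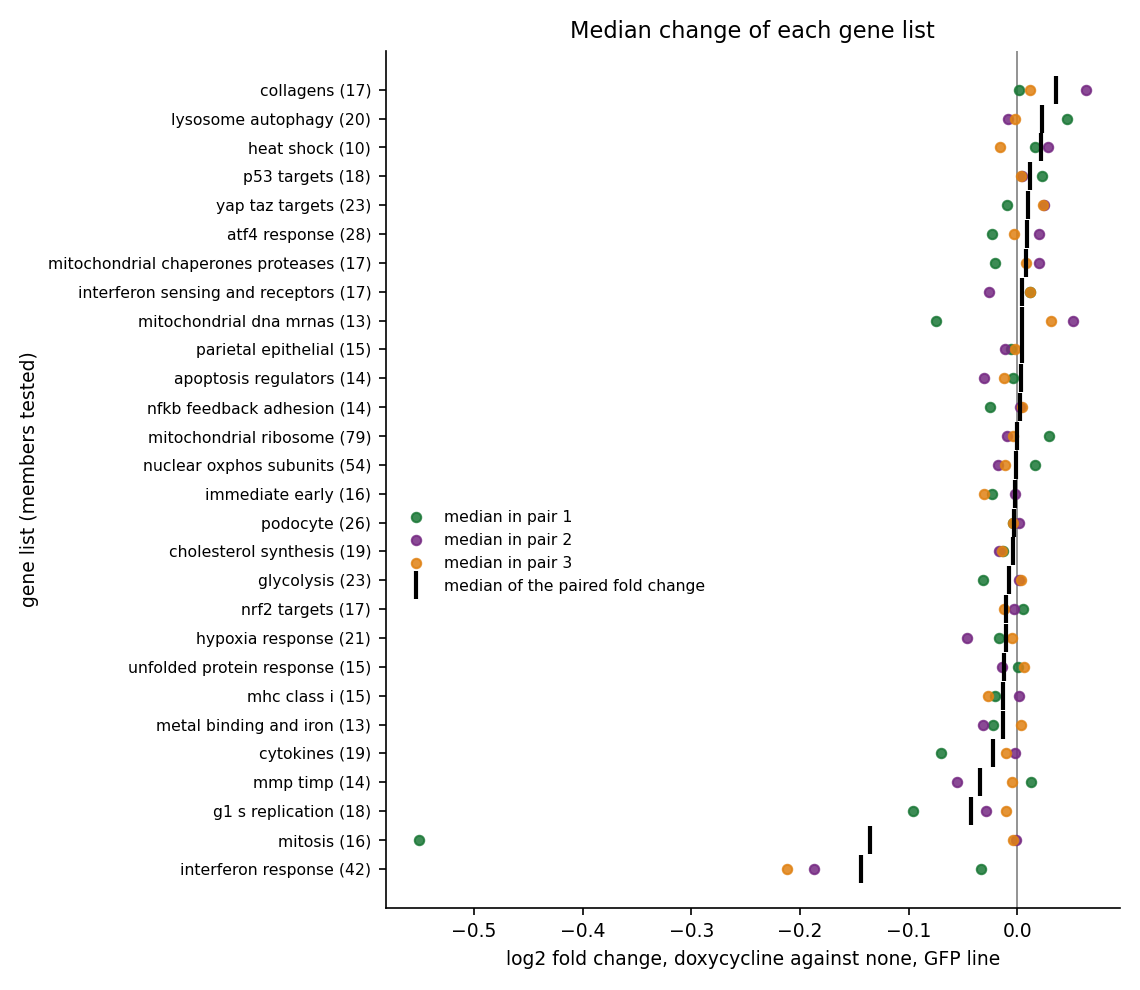
Median log2 fold change on doxycycline for each list with at least 10 members tested, with coloured circles for the medians in each pair and a bar for the median of the paired fold change. The interferon list lies lowest in pairs 2 and 3, and the mitosis list lies far left in pair 1 only.

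The mitosis genes were low in 1 treated library. MKI67 had 102, 127 and 123 CPM untreated and 53.2, 127 and 123 CPM treated, and the median over the 16 genes was -0.55 in pair 1, -0.00101 in pair 2 and -0.00428 in pair 3. All 16 were lower in pair 1, none was called, and the close agreement of their counts in pairs 2 and 3 given above bears on both of those pairs. Summed over the list, the treated library 1 held 415 CPM and the other 5 held 572 to 706 CPM.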

How the data were processed

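RNA was sequenced from poly(A)-selected libraries made from total RNA, per the labels' protocols. The authors deposited 1 table of counts of reads per gene for the 12 libraries, with whole numbers for 62656 genes, 24935 of them without a read. The submitters' processing notes name DRAGEN, Subread with featureCounts, DESeq2 and limma, and the build GRCh38 (hg38). Tool versions and strandedness were not given in the sources used here, so reads of antisense or overlapping genes cannot be told apart. Of the identifiers 62639 matched a table of names, and positions came from GENCODE 29.

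Genes were kept by edgeR's filterByExpr (17470 genes), scaled by TMM and tested with edgeR 4.0.16 (robust quasi-likelihood, R 4.3.3) on all 12 libraries, which leaves 8 residual degrees of freedom. Calls needed an adjusted p (Benjamini-Hochberg) below 0.05. CPM uses TMM-scaled totals. The paired fit used the replicate number from the labels as a block in the 6 eGFP-line libraries, with 2 residual degrees of freedom. This pairing was accepted because deviations of same-numbered libraries correlated at 0.23, 0.42 and 0.41, all over 0.1. The common biological coefficient of variation was 7.48% without and 2.04% with the block. The scripts were tested on simulated data.

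Alternatives were RLE and upper-quartile scaling, other filters, DESeq2 1.42.0, limma-voom 3.58.1 and leaving out libraries. A paired fit without mitosis genes and a fit with pairs within each line were added after the data were seen. Mitosis counts were closer than counting error within pairs 2 and 3, so the deposited counts of those genes do not behave as independent read counts. They were still kept in every fit except the added paired fit without mitosis genes. Genes named are those called in any of the 3 tests (unpaired edgeR, DESeq2, paired edgeR), the 8 largest unpaired rises and falls without overlap and with at least 2 CPM, up to 4 members of each list by paired p, YAP1 and known YAP targets; all interferon members were also kept. The members and the 33 lists were chosen with earlier results of these data known. One member of the interferon list and 1 podocyte marker are not reported here by name.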

Additional observations from a re-analysis of the deposited data

Results flagged for a closer look

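Given here are 4 genes whose doxycycline effect differed between the eGFP and the YAP5SA line. The test was edgeR's interaction in the unpaired fit, which 6.88% of all genes passed. These 4 are not the only ones. In the gene lists, 7 of 23 glycolysis genes and 12 of 23 YAP and TAZ targets passed as well. Differences are the log2 change in the eGFP line minus that in the YAP5SA line. YAP1, which the other line's construct encodes, differed by -2.24 (adjusted p = 0.0362 by edgeR). TRIM55 differed by 1.11, since it was 0.25 in the eGFP line and -0.86 in the YAP5SA line, and did not pass with pairs within each line (edgeR adjusted p = 0.0587). NTNG2, for a netrin-like protein of axon guidance, differed by 0.76, with 2.33, 2.06 and 2.53 CPM untreated and 2.77, 3.26 and 3.09 CPM treated in the eGFP line. In the YAP5SA line it went from 3.04, 2.54 and 2.81 to 2.18, 2.21 and 2.13 CPM. ARHGAP28 differed by -1.10, with 2.37, 1.94 and 2.05 CPM untreated and 1.78, 1.51 and 1.31 CPM treated in the eGFP line. In the YAP5SA line it went from 3.2, 3.22 and 3.0 to 4.31, 5.84 and 4.42 CPM. NTNG2 and ARHGAP28 were not called in the eGFP line itself. Apart from YAP1, these genes were named for their change in these same eGFP-line libraries, which favours a larger difference between the lines. Their differences and passes are thus partly set by that choice, and no conclusion is drawn from them.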

How the results depend on the processing

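The count of genes called, 0 in the unpaired fit, stayed at 0 with RLE or upper-quartile scaling, the stricter filter, limma-voom, the eGFP-line libraries alone without the block, and each of the 6 libraries left out (0 to 0). It was 3 with no filter on low counts, namely PGK1, C21orf91 and CEMIP, and 1 with DESeq2, which was PGK1.

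The replicate block gave 1 gene over 12 libraries (PGK1) and 3 with pairs within each line (CENPT, C21orf91 and OAS3, a fit added after the data were seen). The block together with the eGFP-line libraries alone gave 20. With that block and those libraries, DESeq2 gave 4, limma-voom 17, RLE 20, upper-quartile scaling 20 and the fit without mitosis genes 21. Leaving out a pair gave 18 to 77. Of the 20 genes, 15 were among the 23 called without pair 1, 8 among the 18 without pair 2 and 11 among the 77 without pair 3. Limits of the paired fit are its 2 residual degrees of freedom and mitosis counts that agreed more closely within pairs 2 and 3 than counting error allows.

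Over 24 settings 33 named genes gave 792 values besides the main ones, of which 4 turned direction. All 4 were of YAP1, whose -0.02 became 0.14 and 0.11 without untreated library 2 or 3, 0.21 without treated library 1 (its range over single libraries left out was -0.27 to 0.21), and 0.00129 with the block and without pair 3. Many of the other named genes were chosen for their change in these same libraries, which makes a turn of direction unlikely. The low count of turns is therefore no separate support for them.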

Other observations

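Genes with the largest unpaired changes and non-overlapping groups, none of them called by either edgeR fit, included TGFB3, for a transforming growth factor, with 2.4, 2.26 and 2.37 CPM untreated and 3.01, 2.78 and 3.33 CPM treated. IL15RA, for a chain of the interleukin 15 receptor, had 2.6, 2.5 and 3.0 CPM untreated and 1.74, 2.03 and 2.46 CPM treated. NME2, for a nucleoside diphosphate kinase, had 2.44, 3.17 and 3.12 CPM untreated and 2.33, 1.95 and 2.30 CPM treated. DNAH10OS, annotated as antisense, had 3.94, 4.32 and 4.86 CPM untreated and 6.05, 6.0 and 5.15 CPM treated, and its reads cannot be told apart from those of the gene on the other strand. The metal-binding gene MT2A had 200, 185 and 175 CPM untreated and 173, 181 and 169 CPM treated (-0.10 ± 0.03, not called by paired edgeR).

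MKI67 also stood apart in the number 1 pair of the YAP5SA line, in the other direction, with 3520 reads untreated and 5797 treated, while pairs 2 and 3 there had 3581 and 3624, and 3354 and 3312.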
